A study of Mus musculus with 8 samples.

Results

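The mRNAs of 6 genes through which the oocyte and its surrounding granulosa cells signal to each other were followed across 8 libraries: Gdf9, Bmp15, Bmp6 and Fgf8, which encode secreted ligands, Oosp1, which encodes a secreted oocyte protein, and Kit, which encodes the oocyte's receptor tyrosine kinase. They were taken by symbol from a table of 25574 mouse genes, and each of the 6 symbols matched 1 gene. Oocytes came from 8-week-old CD1 mice primed with 5 IU of PMSG, a gonadotrophin that drives follicle growth, and were collected 46 h later. They were isolated in 100 µM IBMX, which holds them in prophase, stripped of cumulus cells and cultured without the inhibitor for 180 min, by which time the nuclear envelope breaks down (NEBD) and meiosis has resumed. After 10 min in 0.1 mg/ml cycloheximide, which holds ribosomes on mRNA, lysates of 200 oocytes were separated on sucrose gradients. RNA from fractions 2 to 5 formed the non-polysomal dataset (NP, 4 libraries) and RNA from fractions 6 to 10 the polysomal dataset (P, 4 libraries), so that by their labels all libraries share strain, age, priming, culture and drug treatment and differ in the part of the gradient. Each library is thus a pool of oocytes, and no genotype or treatment was varied. The 4 profiles were biological replicates, and an NP and a P library with the same replicate number were read as parts of 1 profile. The question that the comparison addresses is which stored mRNAs were associated with polysomes at NEBD. By the study's account, fractions 2 to 5 also held single ribosomes, and the top fraction was left out. Its authors could not exclude that heavy stored RNA particles sedimented together with polysomes.

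GDF9 and BMP15 are TGF-β family growth factors that the oocyte secretes, singly or as a dimer. They act on TGF-β family receptors of cumulus cells to promote the proliferation and expansion of those cells. FGF8 acts on FGF receptors of the same cells and works together with BMP15 to stimulate cumulus glycolysis, and BMP6 is a further oocyte-derived BMP ligand. KIT takes the opposite direction: it sits in the oocyte membrane and binds KIT ligand made by granulosa cells, signalling through PI3K and FOXO3 to control oocyte growth and survival.

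Since fully grown oocytes do not transcribe, the translation of stored mRNAs in this period is known to depend on their 3′ ends, where the cytoplasmic polyadenylation element (CPE) and the polyadenylation hexamer lie. These letters are shown for the secreted factors because they are known to direct the cytoplasmic polyadenylation of maternal mRNAs during maturation. The last 150 bases of each 3′ UTR were searched on the sense strand only for the CPE, spelled TTTTAT or TTTTAAT, and for the hexamer, spelled AATAAA or ATTAAA. The search used the GENCODE M21 transcript with the longest coding sequence on GRCm38. Among the 5 genes for secreted factors, a CPE was found in 3, Gdf9, Bmp6 and Oosp1, against 25.0% of 10352 genes with a 3′ UTR of that length, and a hexamer in Gdf9, Bmp15 and Oosp1, against 81.4%. Each line below gives 30 bases of sense strand, 5′ to 3′, all within the 3′ UTR and last exon, with the motif in capitals:
Gdf9, CPE, chr11:53437854-53437883 (+): agagtgctgtggTTTTATgtgacggaagaa
Bmp6, CPE, chr13:38500212-38500241 (+): atttattgtctaTTTTATatccattttgct
Oosp1, CPE, chr19:11667562-11667591 (-): agctgtccctgcTTTTAATtgtataaaatc
Bmp15, hexamer, chrX:6314117-6314146 (-): ttaatcttaaagAATAAAttttcatttatg
The Gdf9 CPE began 39 bases from the transcript end and its hexamer 23 bases from it, whereas the CPEs of Bmp6 and Oosp1 began 79 and 120 bases from the end. The Bmp6 match lies beyond the 3′ end that the deposited table gives for that gene. Fgf8 held neither motif in this window. A match is a run of letters and not a measured site, and across all genes of this search the median log2 fold change of P over NP was -0.36 for the 2590 with a CPE and -0.41 for the 7762 without one.

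Markers of the labelled cell were present. Of 13 oocyte markers, 12 passed the filter on low values and Sohlh1, a factor of early follicles, was at 0 throughout. The 18 granulosa and cumulus markers gave a summed level of 15.3 to 141 FPKM (fragments per kilobase per 1e6 mapped reads) across the NP libraries and of 20.3 to 65.8 FPKM across the P libraries, and 7 of them were at 0 in every library. Of 9 markers of other ovarian cells and blood, Hba-a1, Col1a1, Ptprc and Dcn were at 0 in every library. Pecam1 was above 0 in every library, at 10.9 to 63.5 FPKM in NP and 6.36 to 77.7 in P. Star, Cyp17a1, Lhcgr and Col3a1 reached at most 3.40 FPKM in any library. Library depth was read from the smallest steps between FPKM values, which placed it at about 1299377 to 7594637 fragments in NP and 2677946 to 4699328 in P. FPKM are shares of a library, so a higher value in P means a larger part of the polysomal library and not a measured number of molecules, and less RNA per oocyte cannot be told apart from fewer oocytes recovered.

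All 6 mRNAs were abundant, and none was restricted to either part of the gradient. In NP, the mean FPKM ran from Gdf9 through Oosp1, Bmp15, Fgf8 and Kit to Bmp6, with overlapping values among the first 3 and between the last 2, and no overlap between Bmp15 and Fgf8 or between Fgf8 and Kit. In P the order was Gdf9, Bmp15, Oosp1, Fgf8, Bmp6 and Kit, and every neighbouring pair overlapped. None of the 6 genes passed limma's test across the 14292 tested genes at an adjusted p below 0.1, a threshold that 0.021% of tested genes passed. Nor did any reach an unadjusted p below 0.05, against 9.95% of tested genes. With the replicate number as a block, which takes same-numbered libraries as pairs, limma called 1 gene (0.007% of tested genes) and none of the 6, and Gdf9 alone of the 6 reached an unadjusted p below 0.05, against 12.1% of tested genes. Compared within same-numbered libraries, P was above NP in 4 of 4 pairs for Gdf9 and Bmp15, as for 2.2% of tested genes, and below NP in 4 of 4 for Kit, as for 16.5% of tested genes. P was above NP in 2 pairs for Oosp1 and in 1 pair each for Bmp6 and Fgf8. For all 6 the ranges of the NP and P libraries overlapped, where 0.357% of tested genes had every P library above every NP library and 5.92% the reverse. By the ratio of mean FPKM, 1 of the 6 was more than 2-fold higher in P (16.9% of tested genes) and 0 were more than 2-fold higher in NP (40.6% of tested genes).

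**Figure D1:**
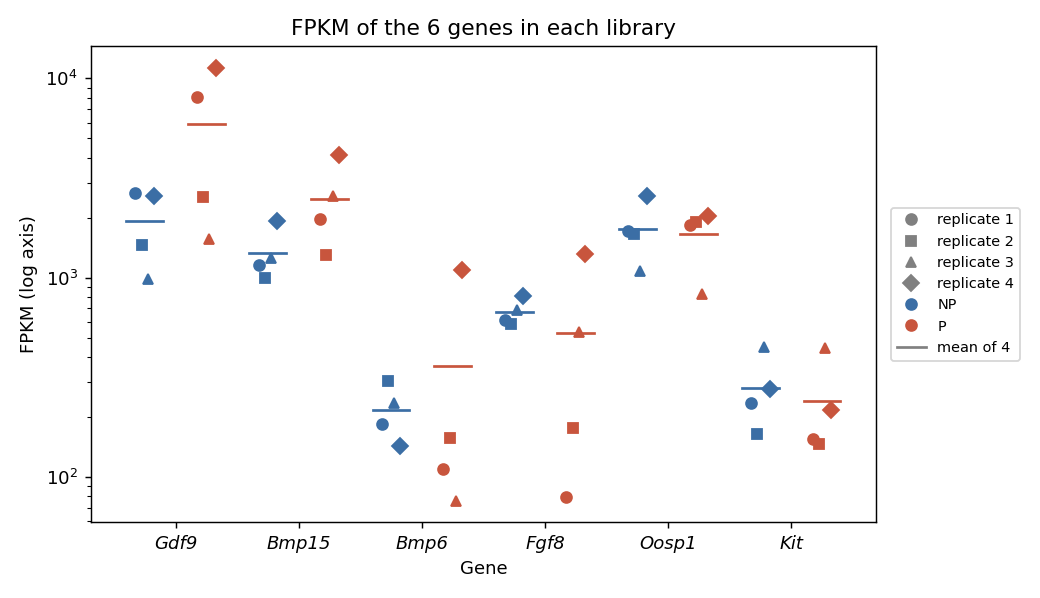
FPKM on a log axis for the 6 genes in each of the 4 NP (blue) and 4 P (red) libraries, with symbols for the replicate and a bar at the mean of 4. Gdf9 and Bmp15 had their highest values in P, the NP values of Fgf8 lay between 585 and 808 while its P values ran from 79.3 to 1318, and the P mean of Bmp6 was set by replicate 4 at 1096.

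Gdf9 (chr11:53431023-53437904, + strand), the oocyte growth factor that early follicles need to develop, was the most abundant of the 6. Its FPKM in NP replicates 1 to 4 were 2673, 1462, 985 and 2572, and in P replicates 1 to 4 they were 8080, 2536, 1562 and 11338. P replicates 1 and 4 lay above all NP libraries, and P replicates 2 and 3 lay within the NP range. The NP mean was 1923 ± 832 and the P mean 5879 ± 4635 (SD, n = 4 each), a ratio of 3.06. On the log2(FPKM + 1) scale used for testing, the fold change of P over NP was 1.30 (SE 0.69, 95% interval -0.19 to 2.79, limma adjusted p = 0.533). Placed among the 2429 genes whose mean FPKM exceeded 50 in at least 1 dataset, this fold change stood at the 96.2th percentile. Within same-numbered libraries the P/NP ratios were 3.02, 1.74, 1.59 and 4.41. With these taken as pairs in the limma block, the fold change had an SE of 0.44 and an unadjusted p of 0.0117, with an adjusted p of 0.328. Without P replicate 4 the ratio of means was 2.11.

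Bmp15 (chrX:6314107-6320721, - strand), the X-linked partner of GDF9, had the second highest ratio. Its FPKM were 1152, 991, 1254 and 1928 in NP and 1967, 1305, 2579 and 4109 in P. P replicates 1, 3 and 4 exceeded every NP library, although P replicate 1 did so by a narrow margin, and P replicate 2 lay inside the NP range. The means of 1331 ± 412 in NP and 2490 ± 1198 in P (SD, n = 4 each) gave a ratio of 1.87, and the log2 fold change was 0.82 (SE 0.54, 95% interval -0.34 to 1.99, limma adjusted p = 0.610), at the 90.2th percentile of the same 2429 genes. Within same-numbered libraries the P/NP ratios were 1.71, 1.32, 2.06 and 2.13. With these taken as pairs in the limma block, the SE was 0.42 and the unadjusted p 0.0723, with an adjusted p of 0.448. Gdf9 exceeded Bmp15 in NP replicates 1, 2 and 4 and in P replicates 1, 2 and 4, whereas in replicate 3 of both datasets Bmp15 was the higher.

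Bmp6 (chr13:38345716-38499728, + strand), a BMP ligand made by oocytes as well as by somatic cells, was among the lowest of the 6. Its FPKM were 184, 301, 235 and 143 in NP and 109, 157, 75.9 and 1096 in P. P replicate 4 was thus above all others and P replicates 1 and 3 below every NP library. The arithmetic means, 216 ± 68.1 in NP and 359 ± 492 in P (SD, n = 4 each), gave a ratio of 1.66, but the geometric means gave 0.936 and the ratio without P replicate 4 was 0.528, so that the direction of the arithmetic ratio rested on that library. The log2 fold change was -0.09 (SE 0.75, 95% interval -1.71 to 1.52, limma adjusted p = 0.960).

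Fgf8 (chr19:45736798-45742915, - strand), the FGF ligand of the oocyte, showed the widest contrast in spread of the 6. Its FPKM were 612, 585, 684 and 808 in NP, and 79.3, 175, 532 and 1318 in P. P replicates 1, 2 and 3 lay below all NP libraries and P replicate 4 above all of them. The mean was 672 ± 99.6 in NP and 526 ± 563 in P (SD, n = 4 each), a ratio of 0.783 that became 0.390 without P replicate 4 and 1.005 without P replicate 1. The log2 fold change was -1.08 (SE 0.75, 95% interval -2.69 to 0.53, limma adjusted p = 0.635). In the limma block its SE was 0.59 and its unadjusted p 0.0886, with an adjusted p of 0.469. In NP, the SD of the log2 values, 0.21, stood at the 2.7th percentile of the 2429 genes, and in P the SD of 1.77 stood at the 76.8th percentile.

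Oosp1 (chr19:11667460-11691150, - strand), a secreted protein made by oocytes, was close to Gdf9 and Bmp15 in NP level and had the ratio of means nearest to 1. Its FPKM were 1705, 1656, 1084 and 2561 in NP and 1828, 1905, 827 and 2050 in P. Only P replicate 3 lay outside the NP range, below it. The means, 1751 ± 609 and 1652 ± 558 (SD, n = 4 each), gave a ratio of 0.943, with a log2 fold change of -0.10 (SE 0.54, limma adjusted p = 0.941). Its spread in P was among the smaller ones, at the 16.6th percentile of the 2429 genes.

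Kit (chr5:75574916-75656722, + strand), the only receptor of the 6, gave FPKM of 235, 163, 446 and 277 in NP and 155, 146, 445 and 216 in P. P replicates 1 and 2 fell just below the lowest NP library, and replicate 3 was the highest library in both datasets. Within same-numbered libraries the P/NP ratios were 0.662, 0.895, 0.999 and 0.779. The means were 280 ± 120 in NP and 241 ± 140 in P (SD, n = 4 each), a ratio of 0.859, and the log2 fold change was -0.28 (SE 0.57, limma adjusted p = 0.838), at the 56.4th percentile of the 2429 genes. Without P replicate 3 the ratio was 0.615, and without NP replicate 3 it was 1.07.

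**Figure D2:**
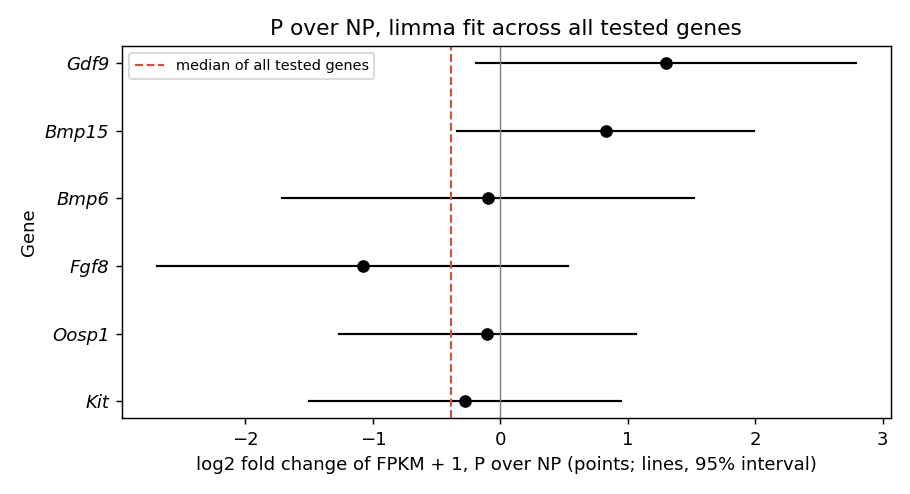
Log2 fold change of P over NP for the 6 genes (points) with 95% intervals (lines) from the limma fit across all tested genes, with a dashed line at the median of all tested genes, -0.39. Every interval, from the fit without the replicate block, contains 0, and the points run from 1.30 for Gdf9 to -1.08 for Fgf8. With the block, Gdf9 had an SE of 0.44, an unadjusted limma p of 0.0117 and an adjusted p of 0.328. Of all tested genes, 12.1% had an unadjusted limma p below 0.05 with the block.

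The median log2 fold change of all tested genes was -0.39 and not 0, so the 6 values can also be read against it. Every P library had fewer genes above 0 FPKM, at 9139 to 11339, than any NP library, at 11703 to 13753. P replicate 4 had the fewest. The part of this difference in the median and in the 6 fold changes was not tested. Of the 6 genes, 5 lay above that median and Fgf8 below it, and the median of the 6 was -0.10. The direction of the 3 smallest fold changes depended on which scaling was used. After quantile normalization, which brought the all-gene median to -0.02, Bmp6, Oosp1 and Kit kept negative fold changes of -0.07, -0.20 and -0.16. When each library was centred on its own median log2 value, the all-gene median became 0.57 and the fold changes of Bmp6, Oosp1 and Kit became 0.86, 0.86 and 0.68. Gdf9 and Bmp15 stayed positive and Fgf8 negative under median centring, at 2.26, 1.78 and -0.12.

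Ranks and ratios within a library do not depend on how that library was scaled. Gdf9 ranked 16, 40, 35 and 18 among all genes in NP replicates 1 to 4 and 4, 10, 13 and 2 in P replicates 1 to 4, so that every P library placed it higher than any NP library did. As a percentile of the tested genes its mean was 99.8 in NP and 99.9 in P, and the exact 2-sided permutation test gave p = 0.029, which is the smallest that 4 against 4 libraries allow, and an adjusted p of 0.171 over the 6 percentile tests. Bmp15 ranked 56, 63, 19 and 32 in NP and 35, 23, 7 and 13 in P, with overlap (exact permutation p = 0.143). Oosp1 stayed within ranks 19 to 31 in NP and 15 to 45 in P. Fgf8 ranked 144, 139, 65 and 98 in NP, and 1347, 455, 90 and 71 in P, where replicates 3 and 4 kept the NP position and replicates 1 and 2 did not. For Bmp6 the NP libraries gave ranks of 654, 363, 304 and 776 and the P libraries 1001, 516, 1134 and 92. For Kit the NP ranks were 504, 689, 120 and 379 and the P ranks 706, 558, 117 and 560. The exact permutation p for the percentiles of these last 4 genes ran from 0.343 to 0.657.

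**Figure D3:**
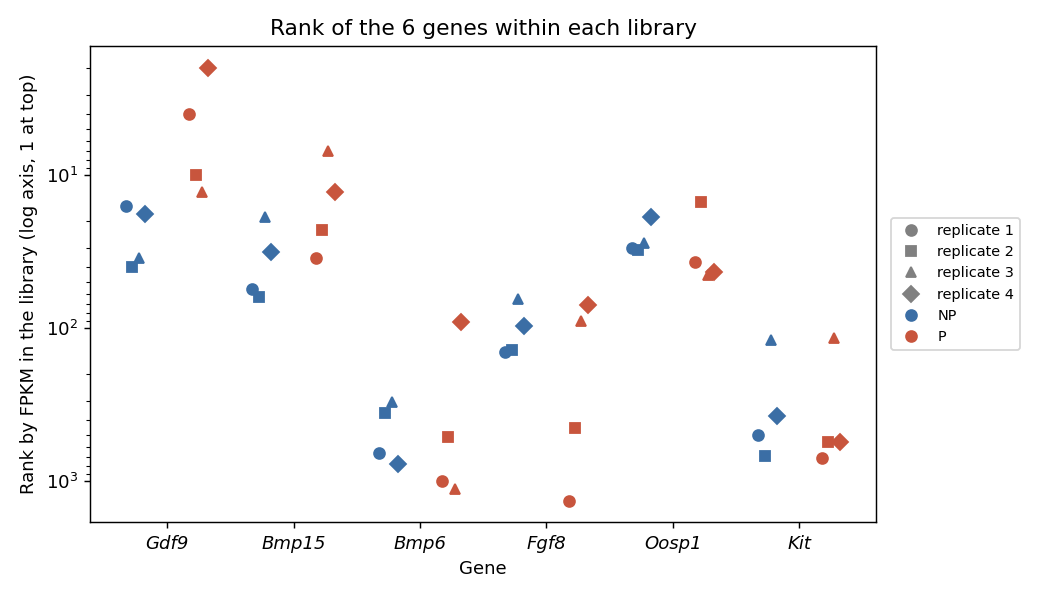
Rank by FPKM of the 6 genes within each library, on a log axis with rank 1 at the top, for NP (blue) and P (red) replicates. Gdf9 is the only one of the 6 whose NP ranks (16 to 40) and P ranks (2 to 13) do not overlap, and Fgf8 falls to 1347 in P replicate 1.

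The balance between the ligands themselves was compared by the log2 ratio of each of the 15 pairs within a library. For Bmp15 over Fgf8, a pair of ligands that act together on cumulus cells, the log2 ratio was 0.95 ± 0.21 in NP and 2.85 ± 1.28 in P (SD, n = 4 each), that is 1.93-fold and 7.23-fold, with no overlap between the datasets and an exact permutation p of 0.029, adjusted p = 0.321 over the 15 pairs. It was the only pair of the 15 without overlap and the only one with an unadjusted p below 0.05. After adjustment, 0 of the 15 were below 0.1. An exact permutation p of 0.029 is the smallest that 4 against 4 libraries allow. Over 15 pairs it passes 0.1 only where several other pairs lie at or near it. The adjusted values therefore cannot decide on a single pair. Gdf9 over Oosp1, 2 mRNAs of like level in NP, had a mean log2 ratio of 0.08 ± 0.38 in NP and 1.49 ± 0.98 in P and did not pass the test (exact permutation p = 0.057, adjusted p = 0.321). Gdf9 over Fgf8 differed by 2.38 (exact permutation p = 0.086) and Bmp15 over Kit by 1.10 (exact permutation p = 0.086). The ratio of Gdf9 to its partner Bmp15 was 0.46 ± 0.64 in NP and 0.93 ± 1.19 in P, a difference of 0.47 (exact permutation p = 0.486). Single P libraries bore on these ratios. Without P replicate 1 the difference for Gdf9/Fgf8 was 1.42 (exact permutation, adjusted p = 0.514) and that for Bmp15/Fgf8 1.32 (exact permutation, adjusted p = 0.429). Without P replicate 3, 5 of the 15 pairs had an adjusted p of 0.0857, namely Gdf9/Fgf8, Gdf9/Kit, Bmp15/Fgf8, Bmp15/Kit and Bmp6/Fgf8. Each of these pairs was at the smallest exact permutation p that 3 against 4 libraries allow, 0.029.

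**Figure D4:**
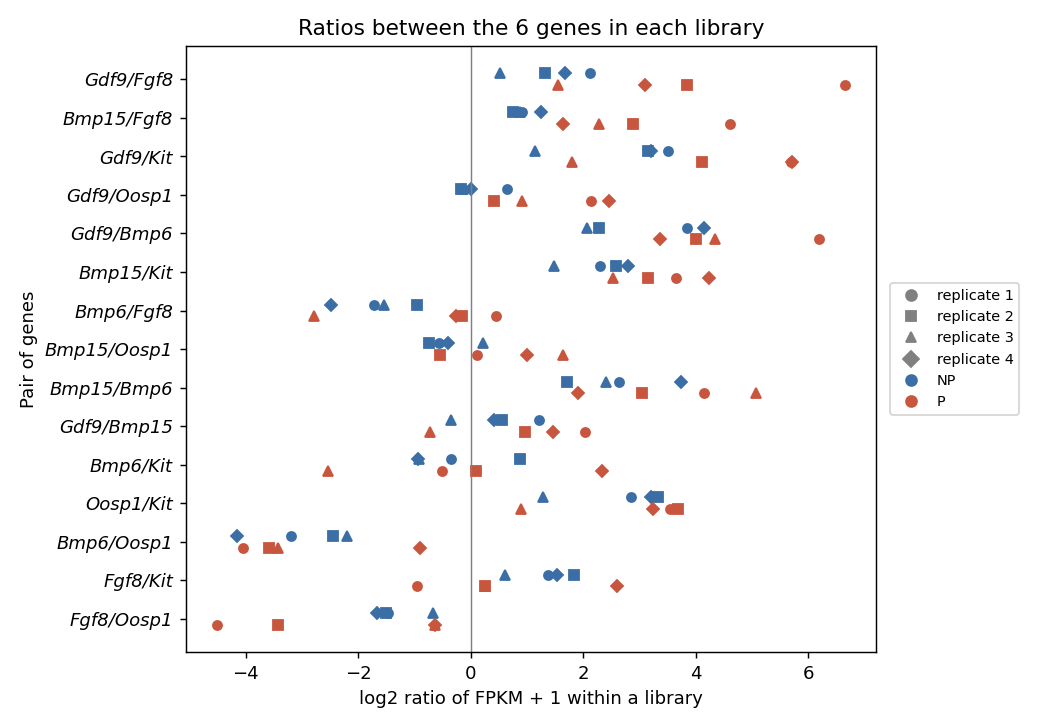
Log2 ratios of FPKM + 1 for the 15 pairs of the 6 genes within each NP (blue) and P (red) library, sorted by the difference between the datasets. Bmp15/Fgf8 is the pair whose NP and P values do not overlap, with NP values up to 1.25 and P values from 1.64.

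Summed over the 6 genes, the part of all FPKM was 1.10, 0.884, 1.07 and 1.44% in NP replicates 1 to 4 and 1.96, 1.41, 1.54 and 3.16% in P replicates 1 to 4. P replicate 2 was the only P library that overlapped NP, and P replicate 4 stood highest. Gdf9 alone took between 0.226 and 0.447% in NP, and in P replicates 1, 2 and 4 it took 1.30, 0.575 and 1.78%, while P replicate 3 lay inside the NP range. Summed oocyte markers moved alongside: P replicates 1 and 4 had 17015 and 18558 FPKM against 5157 and 4712 in P replicates 2 and 3 and 3836 to 9673 in NP, which is the same division of the P libraries as for Gdf9. The part of this shared division in the Gdf9 values was not tested.

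As a description over the 8 libraries, Gdf9 and Bmp15 had a Pearson r of 0.66 on log2 values, Bmp6 and Fgf8 one of 0.57, and Gdf9 and Oosp1 one of 0.56, whereas Kit ran against Oosp1 (-0.68) and against Gdf9 (-0.51). The 8 points share the gradient division and the library scaling. Among the 2429 genes, those with the most similar pattern were Gm813 (0.98) and 2410004A20Rik (0.98) for Gdf9, 1700029F09Rik (0.94) and Ippk (0.93) for Bmp15, Gpr56 (0.96) and Nxt1 (0.93) for Bmp6, Ablim1 (0.97) and Dnm2 (0.94) for Fgf8, C1qtnf5 (0.97) and Rpl14 (0.96) for Oosp1, and Bcar3 (0.93) and Bicd2 (0.91) for Kit.

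The mRNAs of relatives and partners of the 6 were then read from the same fit, and none of them passed limma's test at an adjusted p below 0.1. Of 30 other TGF-β family ligands, 15 were at 0 in every library and 11 passed the filter, with a median log2 fold change of -0.18. The most abundant, Tgfb2, reached a mean of 31.0 ± 6.66 FPKM in NP and 27.1 ± 22.6 in P (SD, n = 4 each), and Tgfb3 a mean of 21.8 in NP and 12.9 in P, so that each of Gdf9, Bmp15 and Bmp6 stood above both in mean FPKM. Of 21 other FGF ligands, 12 were at 0 throughout, and Fgf10, the highest by mean, was at 67.0 FPKM in P replicate 3 and at or below 1.97 in NP, with Fgf9 next at 4.12 in NP and 3.43 in P. Fgf8 stood above both in mean FPKM in each dataset.

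Proprotein convertases, which cleave TGF-β family precursors, were represented by Furin, at 15.2 ± 5.03 FPKM in NP and 31.6 ± 37.1 in P, and by Pcsk6 at 4.44 and 7.87, and 4 of 7 passed the filter. Of 10 extracellular antagonists, 5 passed the filter, and 2 of those, Twsg1 and Bmper, had every NP library above every P library and an unadjusted limma p below 0.05. Among all tested genes, 5.92% had every NP library above every P library and 9.95% had such a p in either direction. Twsg1, which binds BMPs outside the cell, was at 12.4 ± 12.1 FPKM in NP and 1.59 ± 2.48 in P (log2 fold change -2.43, SE 0.94, limma adjusted p = 0.440). Fstl3, an activin-binding antagonist, averaged 1.51 in NP and 9.33 in P, the latter from 34.8 in P replicate 3.

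Receptors and Smads of the TGF-β family, which read these ligands inside the responding cell, were also present in the oocyte libraries. Of 15 receptors 12 passed the filter, with a median log2 fold change of -0.28 and 0 with an unadjusted p below 0.05 by limma, against 9.95% of all tested genes. Acvr1b, an activin type I receptor, was at 72.6 ± 35.4 FPKM in NP and 42.8 ± 14.2 in P, and Bmpr1b, a type I receptor that binds BMP15, at 65.1 ± 18.5 in NP and 35.0 ± 38.8 in P (SD, n = 4 each). Among 9 tested Smads and Smurfs, Smad3, the transducer downstream of activin-type signals, had every P library (246 to 450 FPKM) above every NP library (151 to 226). This held for 0.357% of all tested genes. The log2 fold change of Smad3 was 0.74 (SE 0.50, limma adjusted p = 0.618). Smad4, the common partner, averaged 101 in NP and 138 in P with overlap.

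Of the FGF receptors and feedback regulators, 11 of 14 passed the filter, with a median log2 fold change of -0.63. Spred2, Kl and Klb had an unadjusted limma p below 0.05, all with lower P means, against 9.95% of all tested genes in either direction. The 2 most abundant, Spry4 and Spry1, which restrain receptor tyrosine kinase signalling, averaged 155 and 37.7 FPKM in NP and 169 and 28.8 in P. All 32 genes of the Kit ligand and signalling list passed the filter, and 24 of them had a log2 fold change below 0, with a median of -0.44 beside -0.39 for all genes. Pik3cd, a catalytic PI3K subunit, averaged 447 ± 93.8 FPKM in NP and 455 ± 327 in P, and Foxo3, the factor that PI3K signalling removes from the oocyte nucleus, 159 ± 43.4 in NP and 194 ± 56.9 in P, and both overlapped between the datasets. Sh2b2, an adaptor of receptor tyrosine kinases, was the 1 gene of this list with an unadjusted limma p below 0.05 and without overlap. Of all tested genes, 9.95% had such a p and 5.92% had every NP library above every P library. Sh2b2 averaged 5.80 FPKM in NP and was at 0 in every P library. Kitl, the KIT ligand of granulosa cells, was at 0 in 6 of the 8 libraries, with 2.76 FPKM in NP replicate 4 and 10.3 in P replicate 3.

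Among the relatives of Oosp1, which lie in the same family of secreted placental and oocyte proteins, Gm97 (the table's name for Oosp3) averaged 1381 ± 489 FPKM in NP and 1232 ± 475 in P, a level near that of Oosp1 itself, and Plac1l (Oosp2) averaged 144 ± 87.5 in NP and 259 ± 190 in P (SD, n = 4 each). Of the oocyte markers, Zp3 and Zp2, which encode zona pellucida proteins, averaged 1617 and 1319 FPKM in NP and 3492 and 2338 in P, with overlap and limma adjusted p = 0.704 and 0.650. The opposite held for Nobox and Figla, transcription factors that act on oocyte genes during growth: Nobox was at 308 to 591 FPKM in NP and 46.6 to 241 in P (log2 fold change -2.25, SE 0.60, limma adjusted p = 0.376), and Figla averaged 12.8 in NP and 1.36 in P (-2.69, SE 0.84, adjusted p = 0.405), both without overlap and neither past the threshold. Of the granulosa markers, Cyp19a1 and Nr5a2 had the highest means, with Cyp19a1 at 6.07 to 75.2 FPKM in NP and 0.190 to 62.6 in P and Nr5a2 at 8.43 to 61.4 and 0.487 to 35.9, and of the markers of other cells Pecam1, at 30.7 and 27.5.

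**Figure D5:**
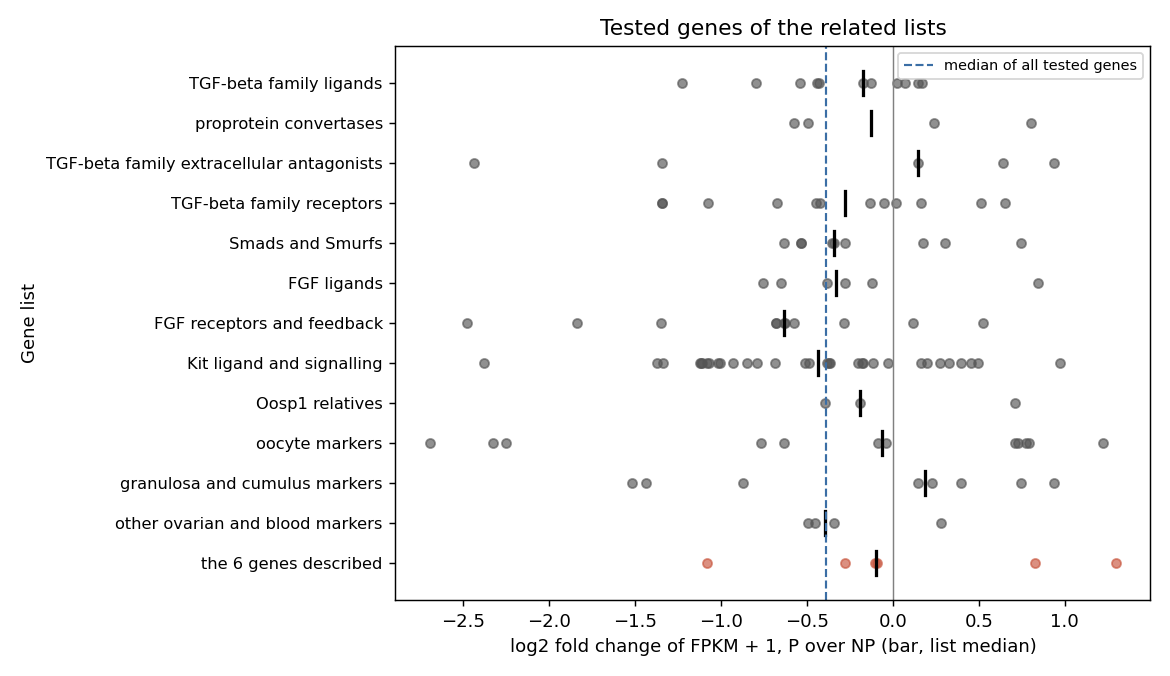
Log2 fold change of P over NP for every tested gene of the related lists (grey points) and the 6 genes described (red points), with a bar at each list's median and a dashed line at the all-gene median of -0.39. The list medians run from -0.63 for FGF receptors and feedback to 0.19 for granulosa and cumulus markers, and Gdf9 at 1.30 lies to the right of every listed gene.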

How the data were processed

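RNA was depleted of rRNA with Ribo-Zero, amplified by REPLI-g whole-transcriptome amplification from oligo dT and random primers, and sequenced from Nextera libraries. Per the labels and the study's methods, the authors trimmed reads with Trim Galore 0.4.1, checked them with FastQC 0.11.5 and aligned them with HISAT2 2.0.5 to the GRCm38 build; per-gene values were then made in SeqMonk. The FPKM values deposited by the authors were used as given. The deposited mean and ratio columns, and the authors' separate DESeq2 list of fold changes and p-values between P and NP, were not used. A count model was not the test because FPKM are not counts.

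Of all genes, those averaging over 0.1 FPKM in NP or in P were tested as log2(FPKM + 1) with limma 3.58.1 (trended eBayes, R 4.3.3, 2-sided, Benjamini-Hochberg over 14292 genes, threshold 0.1); such fold changes understate those of low genes. Single values were compared by exact permutation over 70 assignments of libraries. The study describes 4 independent profiles, each divided into NP and P pools, and the labels give both pools the same replicate numbers, so same-numbered libraries were read as pairs, although no source states which number belongs to which profile. The deviations of same-numbered libraries from their dataset means correlated at 0.139, 0.0518, 0.251 and 0.155 for replicates 1 to 4. No other gene of the table overlapped any of the 6 in position. Depth is approximate and intervals do not cover amplification.

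Named genes were the 6 members, the 2 most abundant of each related list, list genes called by limma, and up to 2 per direction without overlap and with a mean above 10 FPKM; the gene pair most like each member came from Pearson r over 8 libraries. Bmper, Spred2, Kl, Klb, Sh2b2, Kitl and the genes named as being at 0 were named after their values were seen, as was the 3′ UTR search, whose result for Kit is not reported here. Of 184 list entries 182 were found, 2 by an older symbol. The members and lists were chosen with earlier results of these data known. Alternatives were another pseudocount, 2 filters, 2 scalings, a replicate block, and leaving out each library.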

Additional observations from a re-analysis of the deposited data

Results flagged for a closer look

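In each group of 4 libraries the gap of the highest or lowest library to its neighbour was compared with the group's range. Of 106 groups, 14 exceeded Dixon's 95% critical value for 4 values. About 1 in 20 would do so if the groups were independent and their values normally distributed. Some groups held values at 0 and many shared genes and libraries, so the count cannot be set against that rate. Among the 6 genes, Bmp6 stood out in P replicate 4 at 1096 FPKM, and the log2 ratios of Gdf9/Kit in NP replicate 3 (1.14) and of Oosp1/Kit in P replicate 3 (0.89) were the lowest of their groups by a wide margin. Among the related genes, P replicate 3 was the high library for Pcsk6 (29.4 FPKM), Fstl3 (34.8), Bmpr1b (92.9), Fgf10 (67.0), Spry4 (359), Spry1 (64.1) and Pecam1 (77.7), so that 8 of the 14 fell in that library. The others were Twsg1 in NP replicate 4 (30.4 FPKM), Pik3cd in P replicate 4 (939), Nr5a2 in NP replicate 3 (61.4) and Star, a steroidogenic protein, in P replicate 1 (0.993, with 0 in the other P libraries).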

How the results depend on the processing

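No alternative made limma call any of the 6 genes or any listed gene outside the marker lists. Genes of the marker lists were not counted under the alternatives. Over all genes, limma called 3, and 5 with a pseudocount of 0.1, 5 with a mean FPKM above 1, 0 without a filter, 0 after quantile normalization, 0 after median centring, and 0 to 5 when 1 library was left out. Median centring turned the log2 fold changes of Bmp6 to 0.86, Oosp1 to 0.86 and Kit to 0.68, while it moved the all-gene median from -0.39 to 0.57. With 1 library left out, the log2 fold changes ran from -0.92 to 0.35 for Bmp6 and from -0.31 to 0.20 for Oosp1 and crossed 0, and from 0.84 to 1.79 for Gdf9, 0.54 to 1.09 for Bmp15, -1.77 to -0.42 for Fgf8 and -0.62 to -0.02 for Kit. The Bmp6 ratio ran from 0.528 to 2.10. The number of pairs with an adjusted p below 0.1 was 5 without P replicate 3, all at the smallest possible permutation p. It was 0 without any other library. The differences that crossed 0 were those of Bmp6/Oosp1 (-0.69 to 0.36), Bmp6/Kit (-0.65 to 0.98), Oosp1/Kit (-0.29 to 0.83) and the Kit percentile (-1.29 to 0.27).

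With the replicate number as a replicate block, limma called 1 gene, against 3 without the block. None of the 6 and none of the listed genes outside the marker lists was called. NP replicate 2 correlated better with P replicate 1 (0.136) than with P replicate 2 (0.0518). The ratio and percentile tests were not run as pairs.

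With 4 libraries each, the intervals of the 6 fold changes without the block span over 2 log2 units, so that fit leaves the size of each difference uncertain.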
